A study of Mus musculus with 2 samples.

Results

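The genes described here are 9 markers of epithelial cell adhesion and of epithelial or mesothelial cell surfaces, chosen by symbol: Cdh1, Cldn3, Cldn4, Cldn7, Rab25, Spint1, Epcam, Msln and Ly6a. All 9 were found among the 18651 genes listed in either library. They were chosen with their values in these 2 libraries known, so their difference between the libraries is given as a description and not as a finding. Of the 9, 8 were at least 2-fold higher in the Seh1cKO library on the log2(CPM + 1) scale and 1, Epcam, was near equality. CPM is the number of reads per 1000000 assigned reads of a library.

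RNA was sequenced from cultured mouse oligodendrocyte precursors of C57BL/6 cortex, taken at postnatal days 4 to 7 by immunopanning for GalC and then O4. The cells had been moved from medium with PDGF-AA, bFGF and NT3 to medium with 60 nM T3, a thyroid hormone that starts differentiation, for 2 days. There was 1 control library, labelled wild type, and 1 Seh1cKO library, labelled mutant, from a conditional deletion of Seh1l, which encodes a nuclear pore protein. Not given in the sources used here were the Cre driver, the deleted exons and the number and sex of animals per culture. With 1 library per group no test between genotypes was possible. Intervals in parentheses are exact 95% Clopper-Pearson intervals of a ratio of 2 counts, and cover counting error only.

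Epithelial sheets are held together by junctions near the apical end of their lateral membranes. Cadherins of the adherens junction bind neighbouring cells through calcium-dependent contacts, and claudins form the strands of the tight junction that seal the space between cells. Oligodendrocytes belong to a neural lineage that relies on N-cadherin in place of E-cadherin, and their own tight junction strands, in the myelin sheath, are made of claudin 11.

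The libraries held 20730114 and 20599590 assigned reads, so a gene with 0 reads may be present at up to 0.145 CPM in control and 0.146 CPM in Seh1cKO, a limit of 3 reads. Seh1l, the targeted gene, was at 32.1 and 18.5 CPM, which is 1.73-fold lower in the Seh1cKO library (1.53 to 1.97). Olig1, a factor that defines the lineage, was at 864 and 873 CPM, so the labelled cell type was present in both. The libraries differed in sex-linked genes, with 18 control and 7025 Seh1cKO reads for Xist, and 1705 reads and 1 read for the Y-linked Eif2s3y. The genotype cannot be told apart from sex-linked expression. None of the 9 genes is on chromosome X or Y.

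Cdh1 encodes E-cadherin, the calcium-dependent adhesion protein of epithelial adherens junctions (Entrez 12550, GRCm38 chromosome 8, 106603350 to 106670247). It had 6 control reads and 220 Seh1cKO reads, or 0.289 and 10.7 CPM. Nearly all its reads were thus in the Seh1cKO library, a ratio of 36.9 (16.7 to 102). In bulk RNA, more cells of a type and more RNA per cell cannot be told apart.

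The claudins Cldn3, Cldn4 and Cldn7 are membrane proteins of epithelial tight junctions. Cldn3 (chromosome 5, 134986214 to 134987476) was not listed in control and had 154 reads, 7.48 CPM, in Seh1cKO. Against the limit of 3 reads that is at least 51.7-fold higher, with an exact lower bound of 41.5. Cldn4 (chromosome 5, 134945123 to 134946934) was not listed in control either and had 186 reads, 9.03 CPM, in Seh1cKO. That is at least 62.4-fold higher, with a lower bound of 50.2. Of the 1010 genes with 0 reads in control, 21 had 20 or more reads in Seh1cKO, and Cldn4 and Cldn3 had the most and the next most reads of these. In the other direction, 17 genes with 0 reads in Seh1cKO had 20 or more reads in control. Cldn7 (chromosome 11, 69964779 to 69967886) had 2 control reads and 103 Seh1cKO reads, 0.0965 and 5.0 CPM, a ratio of 51.8 (13.99 to 434). Few control reads leave that ratio loosely set. The authors' transcript length for Cldn7 was 989 bases in control and 1232.93 in Seh1cKO, so a fold per length is smaller than the ratio of reads.

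The start regions of these claudin genes are shown because they stood together in the data, and that of Epcam because it did not stand with them. Each runs from 250 bases before to 50 after a RefSeq start (GRCm38.p6). Capitals mark CACCTG, an E-box bound by Snail and Zeb repressors of Cdh1, on either strand. Cldn7 also has an upstream window, which held no CACCTG and is not shown. The windows of Rab25, with the motif, and Spint1, without it, are not shown either. The windows are chr5:134985964-134986263 on the plus strand for Cldn3, chr5:134946885-134947184 on the minus strand for Cldn4, chr11:69965171-69965470 on the plus strand for the downstream start of Cldn7 and chr17:87635729-87636028 on the plus strand for Epcam.
Cldn3: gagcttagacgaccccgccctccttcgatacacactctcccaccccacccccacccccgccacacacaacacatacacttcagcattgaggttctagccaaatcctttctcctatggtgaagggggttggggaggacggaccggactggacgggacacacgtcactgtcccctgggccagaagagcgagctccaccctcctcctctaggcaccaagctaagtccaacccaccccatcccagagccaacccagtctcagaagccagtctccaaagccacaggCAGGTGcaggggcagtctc
Cldn4: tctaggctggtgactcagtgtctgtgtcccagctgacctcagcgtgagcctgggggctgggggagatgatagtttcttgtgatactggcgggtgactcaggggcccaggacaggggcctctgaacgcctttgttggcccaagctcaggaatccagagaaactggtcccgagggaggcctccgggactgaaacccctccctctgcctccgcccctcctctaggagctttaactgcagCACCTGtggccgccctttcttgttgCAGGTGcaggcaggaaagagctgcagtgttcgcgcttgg
Cldn7: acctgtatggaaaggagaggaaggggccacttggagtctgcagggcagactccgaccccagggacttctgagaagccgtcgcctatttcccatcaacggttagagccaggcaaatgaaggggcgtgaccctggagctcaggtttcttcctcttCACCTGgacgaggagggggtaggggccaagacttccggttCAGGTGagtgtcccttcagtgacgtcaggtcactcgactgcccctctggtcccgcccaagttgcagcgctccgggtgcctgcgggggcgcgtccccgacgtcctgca
Epcam: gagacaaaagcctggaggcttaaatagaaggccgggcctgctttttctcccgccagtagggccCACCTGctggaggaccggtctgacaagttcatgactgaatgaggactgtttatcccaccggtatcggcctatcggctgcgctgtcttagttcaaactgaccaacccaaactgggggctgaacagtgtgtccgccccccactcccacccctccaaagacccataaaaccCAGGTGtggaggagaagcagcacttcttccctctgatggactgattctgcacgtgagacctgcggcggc

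RefSeq windows were found for 6 of the 9 genes: Cldn3, Cldn4, Cldn7, Rab25, Spint1 and Epcam. CACCTG stood in at least 1 window of 5 of these 6 genes, all but Spint1, against 22.6% of all 27025 genes with a window. By window it was in 5 of 7, against 20.2% of 32851. Cldn4, Rab25, Epcam and the downstream window of Cldn7 each held it 2 times, and Cldn3 1 time. In Cldn4 the copies began 14 bases before and 12 bases after the start, and in Cldn3 the copy began 32 bases into the transcript. Epcam held it as well, so the motif did not separate the higher genes from the one near equality.

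CACCTG was 1 of 9 motifs searched on both strands. CANNTG, the general E-box that includes CACCTG, was in 5 of the 6 genes and in 75% of all genes. The GC box GGGCGG was in 5 of 6, against 38.2%, and its longer form GGGGCGGGG in none, against 12.9%. The AP-1 motif TGANTCA was in Cldn4 and Spint1 (8.97% of all genes) and the cAMP response element TGACGTCA in Cldn7 and Rab25 (2.03%). The grainyhead-type motif AACCNGTT was in Rab25 (2.35%), the TEAD-type motif CATTCC in Cldn7 (16.6%), and the TATA box TATAAA in none (15.7%). These are matches of letters, and binding was not measured.

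Rab25 encodes a small GTPase of the Rab11 group that recycles membrane proteins to the apical surface of epithelial cells (chromosome 3, 88542029 to 88548279). It had 1 control read and 43 Seh1cKO reads, 0.0482 and 2.09 CPM, a ratio of 43.3 (7.36 to 1748). Spint1 encodes HAI-1, a Kunitz-type inhibitor of the membrane proteases matriptase and hepsin and of the HGF activator (chromosome 2, 119237360 to 119249535). It had 1 control read and 34 Seh1cKO reads, 0.0482 and 1.65 CPM, a ratio of 34.2 (5.74 to 1391). Both genes were higher in Seh1cKO, and with 1 control read each their intervals are wide.

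Epcam encodes a surface glycoprotein of epithelial cells that binds claudin 7 (chromosome 17, 87635979 to 87651127). It differed from the others in 2 ways. It was well covered in control, with 164 reads against 145 in Seh1cKO, or 7.91 and 7.04 CPM. The ratio of Seh1cKO to control was 0.890 (0.707 to 1.12), so no difference was detectable at this depth.

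Msln encodes mesothelin, a lipid-anchored surface protein of mesothelial cells (chromosome 17, 25748613 to 25754378). It had 2 control reads and 513 Seh1cKO reads, 0.0965 and 24.9 CPM, a ratio of 258 (71.1 to 2137). Ly6a encodes Sca-1, a lipid-anchored protein of stem and progenitor cells, endothelium and some epithelia (chromosome 15, 74994877 to 74998031). It had 13 control reads and 462 Seh1cKO reads, 0.627 and 22.4 CPM, a ratio of 35.8 (20.7 to 67.7). The anchored pair thus had the most reads of the 9 in Seh1cKO. Ly6 genes resemble each other, so reads of Ly6a may be shared with relatives. The deposited count of 461.73 is not a whole number.

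**Figure D1:**
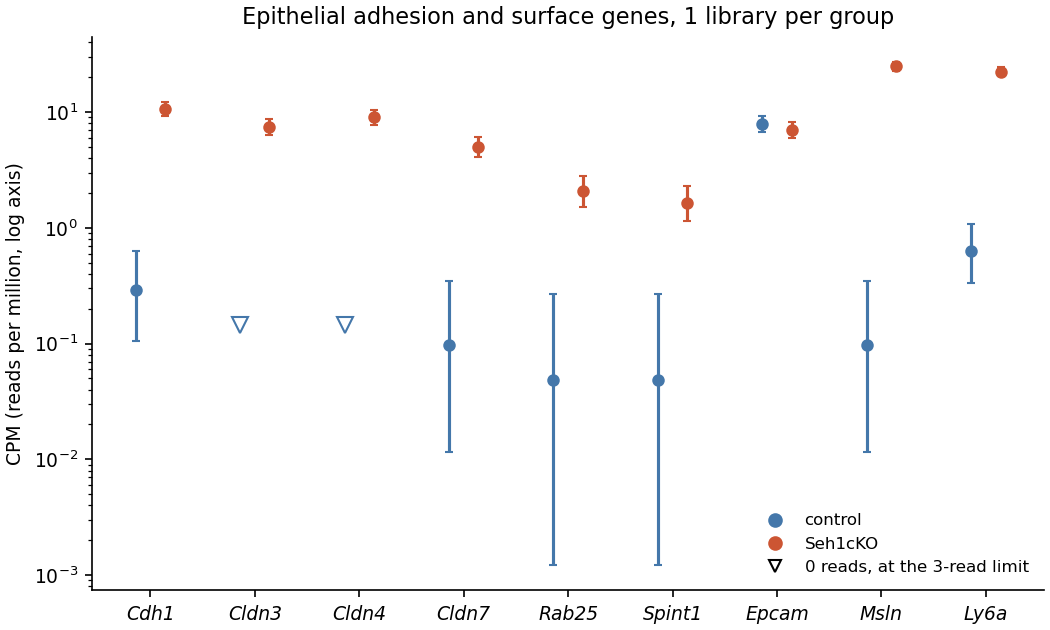
CPM of the 9 genes in the control (blue) and Seh1cKO (orange) library on a log axis, with bars for exact 95% Poisson intervals of 1 count. Open triangles stand at the limit of 3 reads for Cldn3 and Cldn4, which had 0 control reads, and Epcam alone has overlapping bars.

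Summed over all 9 genes the libraries held 189 and 1860 reads, or 9.12 and 90.3 CPM. Epcam supplied 164 of the 189 control reads. The other 8 genes together had 25 reads in control and 1715 in Seh1cKO. Over all listed genes, 2.25% were at least 2-fold higher on the log2(CPM + 1) scale, and of the 9 genes 8 were. The 9 were chosen from this contrast, and nothing is read from that difference in share. Log2 ratios ran from -0.15 for Epcam to 4.56 for Msln with a median of 3.08, beside 0.07 over the 13758 genes whose mean over both libraries was 1 CPM or more. These ratios include a pseudocount of 1 CPM and understate the folds of low genes.

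Of the 9 genes, 8 had a mean of at least 1 CPM. Spint1, at a mean of 0.849 CPM, did not. Epcam was the 1 gene to reach 1 CPM in control. The other 7 passed through the Seh1cKO library alone and so had to differ.

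**Figure D2:**
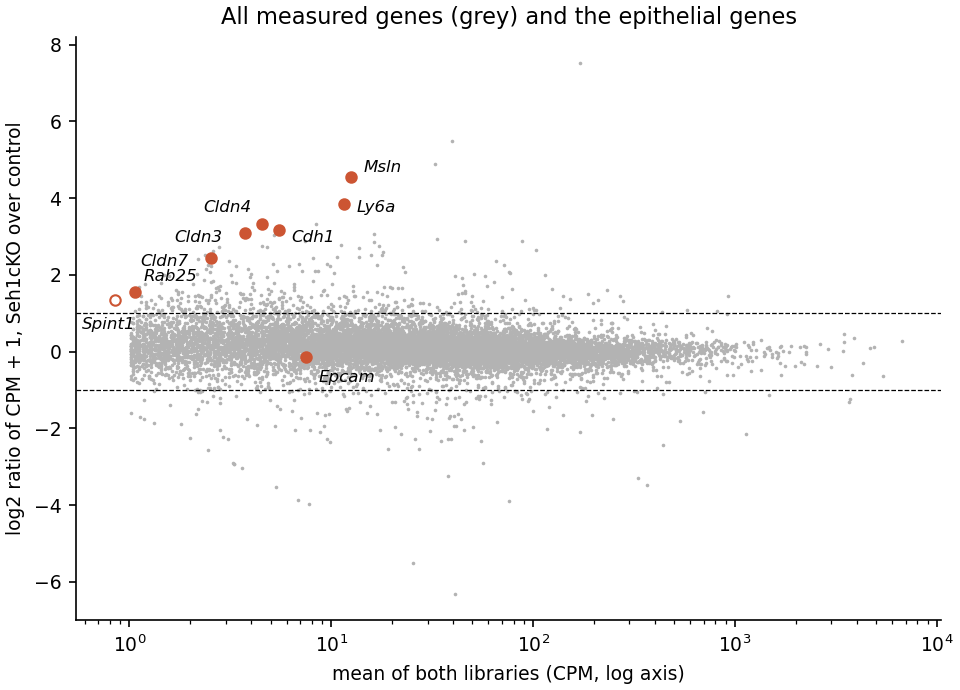
Log2 ratio of CPM + 1 against the mean CPM of both libraries (log axis) for the 13758 measured genes (grey) and the 9 epithelial genes (orange). Dashed lines mark 2-fold, the open circle is Spint1 below the filter of 1 CPM, Msln is highest of the 9 at 4.56 and Epcam lies at -0.15.

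The authors' deposited table of the same comparison lists 896 genes, 659 higher and 237 lower in Seh1cKO, beside 18651 listed in either library. That table holds 8 of the 9, all higher in Seh1cKO, and Epcam is the gene it does not hold. The 9 were chosen from this contrast, so nothing is read from that count. Cldn3 has the largest fold change of the authors' deposited table, a log2 of 9.22, and Cldn4 a log2 of 8.95. In both cases the missing control value stands in the authors' deposited table as 0.01 FPKM, which sets these folds. The largest false discovery rate given there for the 8 genes is 8.11e-09, for Spint1, and all come from 1 library per group.

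Levels were compared between genes per length, as CPM per kilobase of the authors' transcript length in the Seh1cKO library. Ly6a was highest at 23.4 CPM per kilobase, 2.00-fold above Msln (1.76 to 2.28), and Msln at 11.7 was 1.97-fold above Cldn3 (1.64 to 2.38). Cldn3 at 5.92, Cldn4 at 4.94, Cldn7 at 4.06 and Epcam at 3.42 followed. Within that run each neighbouring pair had an interval that included equality. Epcam was 1.42-fold above Cdh1 (1.15 to 1.76), at 2.40. Cdh1 and Rab25, at 1.97, were not separated (ratio 1.22, 0.876 to 1.73), and Rab25 was 2.71-fold above Spint1 (1.69 to 4.39), at 0.726. In the control library Epcam led instead, at 3.84 CPM per kilobase, with Ly6a at 0.656 and Cldn7 at 0.0976. The order of the 9 genes therefore differed between the libraries, with Epcam first in control and sixth in Seh1cKO.

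Other claudins did not share the direction of Cldn3, Cldn4 and Cldn7 as a group. Of 24 claudin symbols 17 were listed and 7 reached 1 CPM. Of these, 2 were at least 2-fold higher, where 2.86% of all measured genes were, and 1 was at least 2-fold lower, where 1.29% were. Those shares are the background for each list below as well. Counts past 2-fold are on the log2(CPM + 1) scale, so they leave out some low genes whose fold without the pseudocount is over 2. Cldn6, a claudin of embryonic epithelia, had 0 reads in control and 90 in Seh1cKO, at least 30.2-fold higher. It passed the filter through the Seh1cKO library alone. Cldn1, of skin and other barriers, was the other higher gene, with 26 and 100 reads. Cldn11, the claudin of myelin, was at 296 and 93.7 CPM, 3.16-fold lower in Seh1cKO (3.00 to 3.32). The median log2 ratio was 0.02, below zero when scaled by the median of ratios (-0.05) or by the upper quartile (-0.02).

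Other components of the tight junction were mostly within 2-fold. Of 18 measured genes, 3 were at least 2-fold higher on the log2(CPM + 1) scale and 15 within 2-fold. Of all measured genes 2.86% were at least 2-fold higher. Without the pseudocount Ocln (3.82-fold, 1.87 to 8.61), Cgn (2.50-fold, 1.58 to 4.06) and Llgl2 (2.44-fold, 1.52 to 4.01) were past 2-fold too. Their median log2 ratio was 0.49. Cgnl1, the junction adaptor paracingulin, was 5.50-fold higher (4.47 to 6.83). Pard6a, a polarity protein, was 1.40-fold lower (1.25 to 1.56). The scaffold Tjp1 had 2038 and 2954 reads. Ocln, occludin, had 10 and 38 reads, F11r, the junction protein JAM-A, 22 and 88, and the tricellulin gene Marveld2 2 and 18.

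The partners of E-cadherin differed less than Cdh1. All 12 measured adherens junction genes were within 2-fold, with a median log2 ratio of 0.21. Of all measured genes 4.16% passed 2-fold in either direction. Cdh2, the N-cadherin of neural cells, had 7521 reads in control and 8433 in Seh1cKO. Ctnnb1, beta-catenin, which binds cadherin tails, had 13635 and 16189 reads. Vcl, which links the junction to actin, was 1.51-fold higher (1.37 to 1.66), and Nectin2, an immunoglobulin-type adhesion protein, 1.22-fold lower (1.14 to 1.32). Cdh3, the P-cadherin gene near Cdh1, was under the filter at 2 and 26 reads.

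Desmosomal genes, whose products anchor keratin filaments to the membrane, were at least 2-fold higher in 4 of 7 measured cases and lower in none. Over all measured genes 2.86% were higher and 1.29% lower. The desmosomal median log2 ratio was 1.03. Ppl, periplakin, was 7.22-fold higher (5.05 to 10.6), and Pkp4 1.22-fold lower (1.13 to 1.32). Epithelial keratins were at least 2-fold higher in 5 of 6 measured cases, beside the same 2.86%, with a median of 3.18. Krt8 had 16 control reads and 1621 Seh1cKO reads, a ratio of 102 (62.6 to 179). Krt5, of basal epithelia, had 22 and 23 reads. Of the measured genes, 4 of the 6 keratins and 3 of the 7 desmosomal genes were under 1 CPM in control and passed the filter through the Seh1cKO library.

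Transcription and splicing regulators of epithelia were mostly low in both libraries. Of 15 listed genes 3 reached 1 CPM, and 2 of these 3 were under 1 CPM in control. Of the 3, 1 was at least 2-fold higher, where 2.86% of all measured genes were. The 15 genes summed to 11.96 CPM in control and 20.6 in Seh1cKO. Grhl1, with 177 and 198 reads, supplied 8.54 and 9.61 CPM of these sums, so they mask the difference in the other genes. Elf3, an ETS factor of epithelia, was 7.38-fold higher (3.13 to 21.2), from 6 and 44 reads. It passed the filter through the Seh1cKO library alone. Grhl2, an activator of Cdh1 and claudin genes, had 2 and 14 reads, Ovol2 0 and 2, and the splicing regulator Esrp1 0 and 20.

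Repressors of Cdh1 and E proteins had a median log2 ratio of 0.00 over 7 measured genes, and of -0.08 when scaled by the median of ratios and -0.05 by the upper quartile. In this list 1 was at least 2-fold higher and none lower, where 2.86% and 1.29% of all measured genes were. Twist1 was 3.31-fold higher (2.24 to 5.02). Under the filter, Twist2 had 1 and 27 reads, Foxc2 12 and 24, and Gsc 20 and 13. Snai2, which encodes Slug, was at 3.14 and 1.07 CPM, 2.94-fold lower (1.79 to 5.001), and lay just inside 2-fold once the pseudocount was added. Zeb1 had 2468 and 3191 reads and Zeb2 1754 and 1436.

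The partners of Rab25 in recycling had a median near equality, with 6 genes above zero and 6 below. Of 12 measured genes 1 was at least 2-fold higher and 11 within 2-fold, with a median of 0.04 that was below zero when scaled by the median of ratios (-0.04) or by the upper quartile. Rab11fip1, an effector of Rab11 and Rab25, was 3.19-fold higher (2.08 to 5.03). Rab11fip4 was 2.40-fold higher (1.63 to 3.58), within 2-fold once the pseudocount was added, and Myo5b 1.86-fold higher (1.64 to 2.11). Evi5 was 1.14-fold lower (1.07 to 1.21). Rab11a had 2784 and 2619 reads.

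The matriptase and HGF system was a list of proteases, inhibitors, ligands and receptors. Of its 9 measured genes 6 were at least 2-fold higher and none lower, with a median log2 ratio of 1.13. Over all measured genes 2.86% were higher and 1.29% lower. The 6 were Spint2, St14, Met, Plau, Plaur and F2rl1, and F2rl1 was under 1 CPM in control. St14, the gene of matriptase, had 29 and 192 reads, and Spint2, which encodes the related inhibitor HAI-2, 289 and 638. Plau, urokinase, was 7.33-fold higher (5.49 to 9.96). Hpn, hepsin, had 33 control and 18 Seh1cKO reads, with a ratio of 0.549 (0.291 to 1.004). Hgfac, the gene of the HGF activator, was under the filter at 8 and 9 reads, and the ligand Hgf had 37 and 41. Among matriptase, hepsin and the HGF activator, which Spint1 inhibits, only St14 passed 2-fold on the log2(CPM + 1) scale. Met, the HGF receptor, had 136 and 404 reads.

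Partners of Epcam and other carcinoma surface genes were within 2-fold in 10 of 11 measured cases, with a median log2 ratio of 0.13. Of all measured genes 4.16% passed 2-fold in either direction. Cd9, a tetraspanin, was 1.52-fold lower (1.49 to 1.56).

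Of the other Ly6 genes 7 were measured, 4 were at least 2-fold higher and none lower, with a median of 1.13. Over all measured genes 2.86% were higher and 1.29% lower. Plaur, the urokinase receptor, which also stands in the protease list, was 5.90-fold higher (3.96 to 9.075), and Lypd1 had a ratio of 0.835 (0.673 to 1.04). Ly6c1, a near relative of Ly6a on the same chromosome, had 7 and 23 reads, and Ly6e, a neighbour of Ly6a, was 2.51-fold higher (2.26 to 2.78).

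**Figure D3:**
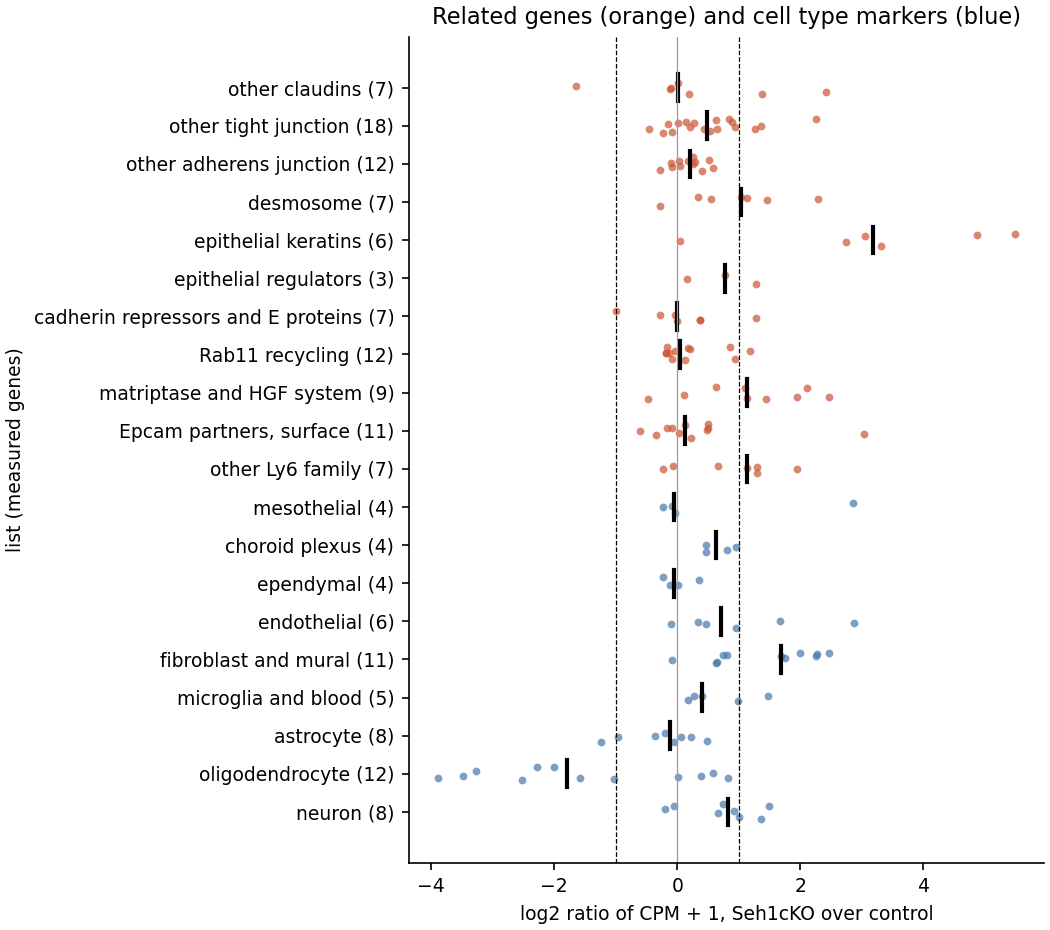
Log2 ratio of CPM + 1 for each measured gene (points, spread vertically at random) of lists related to the 9 genes (orange) and of cell type markers (blue), with medians as black bars and 2-fold as dashed lines. Epithelial keratins have a median of 3.18, adherens junction genes of 0.21, and oligodendrocyte genes of -1.79.

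Markers of other cells differed between the same 2 libraries, and their part in the values above was not tested. Of the 11 mesothelial markers searched beside Msln, 6 had between 0 and 3 reads in each library. Upk3b had 2 reads in control and 0 in Seh1cKO, Wt1 1 and 0, Upk1b 0 and 1, and Bnc1 0 and 3, while Lrrn4 and Muc16 were listed in neither library. Aldh1a2, a retinoid enzyme of mesothelium and meninges, was 9.18-fold higher (7.11 to 12.02), and Gpm6a, which neurons also express, was at 394 and 382 CPM. The 9 listed mesothelial genes summed to 441 and 451 CPM, and these sums are mostly Gpm6a. Aldh1a2 supplied 3.18 and 29.2 CPM. Of 4 measured genes 1 was at least 2-fold higher (2.86% of all measured genes).

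The choroid plexus and the ependyma are the epithelial tissues of the brain. None of 4 measured choroid plexus genes passed 2-fold on the log2(CPM + 1) scale, with a median log2 ratio of 0.64 and summed levels of 28.5 and 52.6 CPM over 10 genes. Ttr, transthyretin, was 2.00-fold higher (1.77 to 2.28), and Kcnj13 had 1 and 2 reads. All 4 measured ependymal genes were within 2-fold, with a median of -0.05 and summed levels of 124 and 146 CPM. Foxj1, the ciliary factor, was 1.28-fold higher (1.21 to 1.36), and Cfap126 had a ratio of 0.841 (0.6998 to 1.01).

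Genes of fibroblasts and mural cells were at least 2-fold higher in 6 of 11 measured cases and lower in none. Over all measured genes 2.86% were higher and 1.29% lower. The 11 had a median of 1.68, and summed levels were 222 and 642 CPM over 12 genes. Dcn, decorin, was 6.88-fold higher (5.36 to 8.93) and Col1a1 4.08-fold higher (3.80 to 4.39), while Vtn had a ratio of 0.898 (0.502 to 1.60). Endothelial genes, relevant to Ly6a, were at least 2-fold higher in 2 of 6 measured cases (2.86% of all measured genes), with a median of 0.71. Their summed levels were 28.3 and 63.1 CPM over 10 genes. Cdh5, VE-cadherin, was 13.6-fold higher (8.73 to 22.3). Slco1c1 was at 16.1 and 32.3 CPM, 2.01-fold higher (1.76 to 2.30), and lay just inside 2-fold once the pseudocount was added. Esam, an endothelial adhesion molecule and the other gene past 2-fold on the log2(CPM + 1) scale, had 16 and 95 reads. It was under 1 CPM in control and passed the filter through the Seh1cKO library. Of the other defining markers, Pecam1 had 27 and 45 reads, Flt1 67 and 89, Kdr 111 and 102 and Tie1 4 and 13, while Cldn5 (0 and 1), Tek (4 and 3) and Emcn (2 and 1) were near 0. Kdr had a ratio of 0.925 (0.6997 to 1.22).

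Microglia and blood genes were at least 2-fold higher in 1 of 5 measured cases (2.86% of all measured genes), with a median of 0.41. Their summed levels were 33.3 and 51.9 CPM over 9 genes. Tmem119, a microglial marker, was 4.81-fold higher (2.87 to 8.49). It was under 1 CPM in control and passed the filter through the Seh1cKO library. Neuron genes were at least 2-fold higher in 3 of 8 (2.86% of all), with a median of 0.83 and summed levels of 423 and 464 CPM. Nefl was 4.13-fold higher (2.73 to 6.43), Tubb3 1.14-fold lower (1.07 to 1.22) and Map2 near equality at 279 and 270 CPM. Astrocyte genes were at least 2-fold lower in 1 of 8 (1.29% of all measured genes), with a median of -0.12. Their levels summed to 11222 and 7279 CPM. Gfap was 2.35-fold lower (2.32 to 2.37) and Gja1 1.40-fold higher (1.33 to 1.48). Oligodendrocyte lineage genes were at least 2-fold lower in 8 of 12 (1.29% of all), with a median of -1.79 and summed levels of 4716 and 2680 CPM. Mag was 16.5-fold lower (14.2 to 19.2) and Pdgfra 1.77-fold higher (1.70 to 1.85).

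Genes beside the 9 on their chromosomes mostly stood near equality. Within 100 kilobases of a member, leaving out the 9 themselves, 54 genes reached 1 CPM. Of these 2 were at least 2-fold higher on the log2(CPM + 1) scale and none lower. Of all measured genes 4.16% passed 2-fold in either direction. The median log2 ratio of the 54 genes was 0.06. The higher neighbours were Gchfr, near Spint1, at 14 and 117 reads, and Ly6e, near Ly6a. Without the pseudocount Rhov (2.55-fold, 1.31 to 5.29) and Dll4 (2.47-fold, 1.61 to 3.88), also near Spint1, were higher too. Cdh3, near Cdh1, was under the filter at 2 and 26 reads. Cldn3 and Cldn4 lie next to each other on chromosome 5 on opposite strands. Mettl27, 2486 bases from Cldn4, had 425 and 387 reads, and Abhd11, beyond Cldn3, 1667 and 1588. Cldn3 overlaps the non-coding gene Wbscr25, which had 0 reads and 1 read. Whether counting used the strand was not given in the sources used here, so reads of overlapping genes may not be separable.

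**Figure D4:**
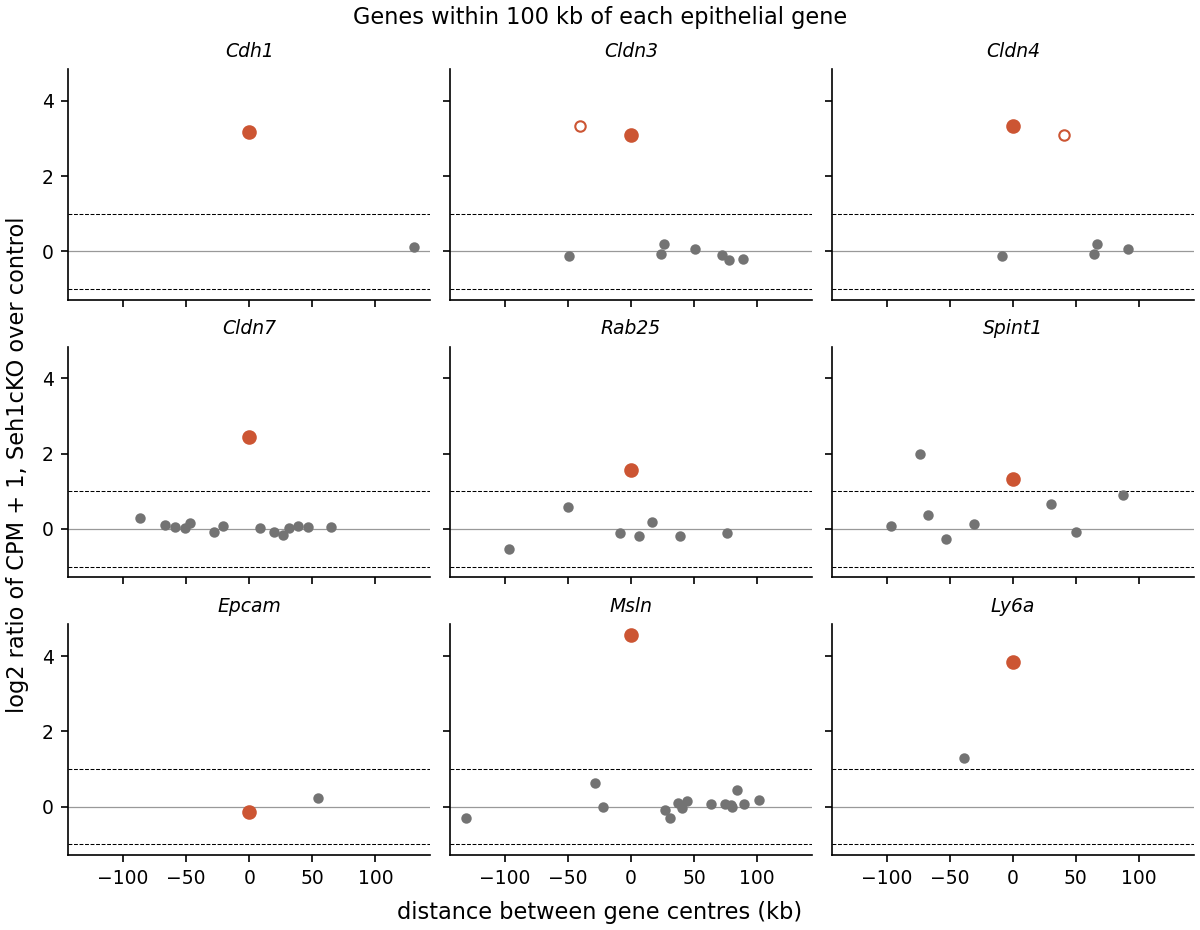
Log2 ratio of CPM + 1 (vertical) against the distance between gene centres in kilobases (horizontal) for measured genes whose nearest edge lies within 100 kilobases of each of the 9 genes. Filled orange points are the named gene, open orange points another of the 9 and grey points other genes; 2 grey genes, Gchfr and Ly6e, lie above the upper dashed line at 2-fold.

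Among the genes most like Cdh1 over the 2 libraries were Krt7, Krt19, Serpinb9b and Sftpd. Likeness was the Euclidean distance in log2(CPM + 1), which was 0.10 for Krt7, 0.32 for Krt19, 0.33 for Serpinb9b and 0.60 for Sftpd. Krt7 and Krt19 are keratins of simple epithelia, with 7 and 207 reads and 9 and 178 reads. Sftpd, surfactant protein D of the lung and other mucosal surfaces, had 0 reads in control and 152 in Seh1cKO. With 2 libraries this distance measures level and ratio alone.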

How the data were processed

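The submitters' processing notes name HTSeq and StringTie with the mm10 build. Not given in the sources used here are the aligner, the use of strand in counting and the role of each tool. The authors deposited, per library and gene, an expected count, an FPKM value and a transcript length. The authors' deposited comparison table gives a log2 fold change, p-values and a false discovery rate, from a test that no source used here names.

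Each expected count was rounded to a whole number, and a gene not listed in a library was set to 0 reads. Counts were scaled to 1000000 reads (CPM). Log2 ratios are log2(CPM + 1) in Seh1cKO minus control, over genes averaging 1 CPM or more. Folds leave out the pseudocount and carry exact 95% Clopper-Pearson intervals from both counts. Reads have no molecular identifiers, so these cover counting error only. Coordinates and promoter sequences are from RefSeq on GRCm38.p6, whose chromosomes are those of mm10; 18611 of 18651 identifiers matched it.

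The 9 genes and the 20 lists of related genes and cell markers were chosen with earlier results of these data known. Genes named from each list are the largest positive and the most negative ratio at 1 CPM or more, the most abundant of each cell list, and the 5 genes most like Cdh1. Some genes that this rule picks are not reported here. Others, such as the defining markers and Zeb1, Zeb2, Grhl2, Cdh2 and St14, were named after their values were seen. Computations used Python 3.11.15, pandas 2.3.3, numpy 2.4.6, scipy 1.17.1 and matplotlib 3.10.9, and were tested on simulated data. Alternative pseudocounts, scalings, filters and the FPKM scale were tried.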

Additional observations from a re-analysis of the deposited data

How the results depend on the processing

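With 1 library per group, no library could be left out. No paired analysis was possible because each group has 1 library. In each alternative where they were measured, the 8 genes other than Epcam kept positive log2 ratios. Epcam stayed between -0.22 and -0.10. A pseudocount or a filter cannot change the sign of a ratio, and the genes were chosen from this contrast. Nothing is therefore read from the kept signs. With a pseudocount of 5 CPM, 5 of the 9 genes remained past 2-fold, and Cldn7 (0.97), Rab25 (0.49) and Spint1 (0.40) did not. On the deposited FPKM scale Spint1 (0.75) did not. With a mean of at least 5 CPM, 4 of the 9 genes were measured and 3 were at least 2-fold higher, against 7 of 8 at 1 CPM. Over all genes, 394 were at least 2-fold higher and 178 lower. These became 637 and 241 with a pseudocount of 0.1 CPM, 141 and 116 with 5 CPM, 204 and 148 on the FPKM scale, and 228 and 146 with a mean of at least 5 CPM. Median of ratios scaling gave 329 and 211. The share of higher genes among these moved from 68.9% to 54.9% with a pseudocount of 5 CPM, to 58% on the FPKM scale and to 60.9% with median of ratios scaling. The counts were 388 and 169 when genes of chromosomes X and Y were left out, a setting that was chosen after seeing the data. Several list medians moved by over 1.5 times, and those named below are examples. With a pseudocount of 5 CPM the medians were lower for keratins (3.18 to 1.69), choroid plexus (0.64 to 0.34) and neurons (0.83 to 0.54). At that setting desmosomes (1.03 to 0.41), epithelial regulators (0.78 to 0.30) and the Ly6 family (1.13 to 0.61) were lower too. So were tight junctions (0.49 to 0.28) and endothelium (0.71 to 0.46). On the FPKM scale the desmosome median moved from 1.03 to 0.34. With no filter the medians were lower for the matriptase and HGF system (1.13 to 0.50), the Ly6 family (1.13 to 0.25), endothelium (0.71 to 0.39) and choroid plexus (0.35). With a mean of at least 5 CPM they were lower for tight junctions (0.49 to 0.24) and epithelial regulators (0.78 to 0.15, 1 gene left), and higher for microglia and blood (0.41 to 0.70). With median of ratios scaling the adherens junction median moved from 0.21 to 0.14. With a pseudocount of 0.1 CPM the medians were higher for desmosomes (1.59) and epithelial regulators (1.23). The cause of these shifts was not tested beyond what each setting does by construction. Counts of 0 to 13 control reads limit how closely the ratios of the 8 higher genes are known.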
